A study of Homo sapiens with 6 samples.

Results

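The nuclear-encoded subunits of the mitochondrial respiratory chain and of ATP synthase were compared between SH-SY5Y cells given endosulfan and control SH-SY5Y cells. A gene was a member when a probe set of the array named that gene alone and its symbol began with NDUFA, NDUFB, NDUFC, NDUFS or NDUFV and a digit, with UQCR, COX4I, ATP5F1, ATP5M or ATP5P, or with COX5 to COX8 and a letter, or when it was CYC1 or SDHA to SDHD. The rule found 82 genes among 18132 measured genes, on 187 of 49293 probe sets. Complex I held 35 of these genes, complex II 3, complex III 9, complex IV 17 and complex V, the ATP synthase, 18. SDHB was not analysed here, and COXFA4 and COXFA4L2, once named NDUFA4 and NDUFA4L2, carry symbols outside the rule and are given beside the members.

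SH-SY5Y is an established human neuroblastoma line with features of sympathetic neuroblasts. One group was exposed for 24 h to 3 µM endosulfan, an organochlorine insecticide known for its action on GABA receptors, which the labels set at a fraction of the LC50 (n = 3 arrays). The other group was labelled control (n = 3 arrays), and the sources used here do not say what its cells were given. All cells were from the 1 line, grown in the same medium with serum. The arrays were labelled as biological replicates, with nothing said of separate cultures or days, so the p-values below measure the spread between these arrays, which may be partly technical. Values are log2 RMA values of Affymetrix PrimeView arrays, a scale on which a difference of 1 is a doubling, and a probe set's level is not comparable with that of another probe set.

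The respiratory chain passes electrons from NADH (complex I) and succinate (complex II) through ubiquinone to complex III, over cytochrome c to complex IV and on to oxygen. Complexes I, III and IV pump protons across the inner mitochondrial membrane, and ATP synthase lets them flow back to make ATP. The genes measured here lie in the nucleus, and their products join subunits encoded by mitochondrial DNA in every complex except complex II. Neurons depend heavily on this route for ATP.

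By their median, the members stood close to all genes in the comparison of endosulfan with control cells. The median log2 fold change, endosulfan minus control, was 0.083 over the 82 members, beside 0.053 over all genes tested. It was 0.14 for complex I, -0.23 for complex II, 0.019 for complex III, 0.062 for complex IV and -0.044 for complex V. Single members lay between -1.05 for ATP5F1C, the γ subunit of the ATP synthase's central stalk, and 0.98 for NDUFB3, an accessory subunit of complex I.

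At a Benjamini-Hochberg adjusted p below 0.05 in limma, 0 of the 82 members were lower and 0 higher, where 0% of all genes were called lower and 0.00552% higher. The smallest adjusted p among members was 0.196, for NDUFB3. At an unadjusted p below 0.05, 9 members were lower, which is 11% of them, beside a background of 10.5% of all genes. In the other direction 12 members were higher, which is 14.6%, beside a background of 6.64%. The endosulfan and control arrays did not overlap for 8 members that were lower, beside 10.2% of all genes, and for 17 members that were higher, beside 12.4% of all genes. By sign alone 27 members were lower and 55 higher, beside 39.8% and 60.2% of all genes. Among the 187 member probe sets, 0 passed the adjusted threshold in either direction, beside 0% lower and 0.00811% higher of all probe sets, and the smallest adjusted p was 0.215. At the unadjusted threshold 18 probe sets were lower, beside 9.21% of all, and 26 higher, beside 6.3%. The groups did not overlap for 15 lower probe sets, beside 9.24%, and for 31 higher ones, beside 11.5%.

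**Figure D1:**
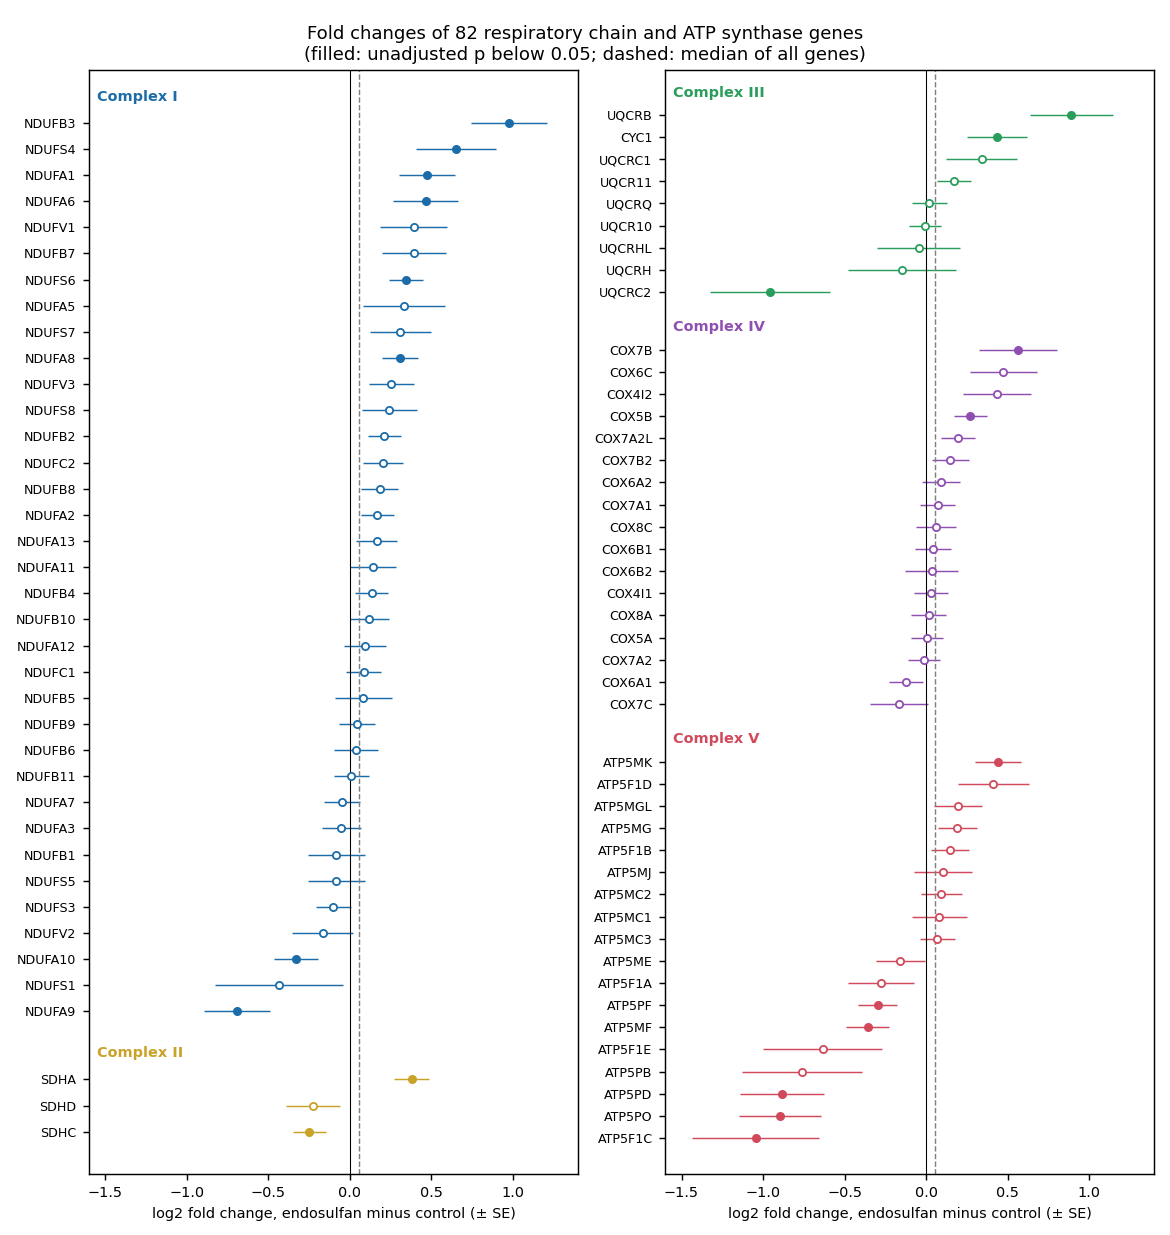
Log2 fold change, endosulfan minus control, of each of the 82 genes on the horizontal axis, with its standard error as a bar, one row per gene grouped by complex; filled points have an unadjusted p below 0.05 and the dashed line is the median of all genes (0.053). Points lie on both sides of 0 in every complex, and the lowest values are those of ATP5F1C (-1.05), UQCRC2 (-0.96) and ATP5PO (-0.90).

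The arrays were not equally alike within a group. The first principal component of all probe sets held 63.9% of the variance and ran between 61.8 in endosulfan 1 and -71.6 in control 1, with endosulfan 2 at -1.81 beside control 2 at -2.33. The bacterial poly-A transcripts added to the RNA before labelling averaged 8.11 ± 0.60 in endosulfan arrays and 6.57 ± 1.02 in control arrays (log2, SD, n = 3 each, exact permutation p = 0.2, where the smallest possible is 0.1). Hybridisation controls averaged 10.70 ± 0.19 in endosulfan and 10.05 ± 0.29 in control arrays (exact permutation p = 0.1), and the 3′ minus 5′ difference of GAPDH, a sign of RNA quality, 0.84 ± 0.04 and 0.75 ± 0.06 (exact permutation p = 0.1). For beta-actin this difference was 3.67 ± 0.10 in endosulfan and 3.59 ± 0.07 in control arrays (exact permutation p = 0.3). The mean log2 value of 9 measured neuroblast markers of 10 listed was 10.71 to 10.76 in endosulfan arrays and 11.00 to 11.08 in control arrays, with 0 of them below the median level of all probe sets. Markers of other cell types averaged 4.86 to 4.96 in endosulfan and 4.66 to 4.91 in control arrays for epithelium (5 genes), 3.68 to 3.78 and 3.58 to 3.71 for blood cells (4), 5.21 to 5.47 and 5.13 to 5.37 for endothelium (5), 6.00 to 6.31 and 6.08 to 6.21 for glia (3), and 4.02 to 4.04 and 4.06 to 4.21 for fibroblasts (5). Below the median level of all probe sets lay 2 of 5 epithelial, 4 of 4 blood cell, 2 of 5 endothelial, 0 of 3 glial and 4 of 5 fibroblast markers. With the poly-A transcript level as a covariate, a fit added after the values were seen, an unadjusted p below 0.05 was reached by 0 members that were lower and 1 that was higher, among 158 and 138 of all genes. The part of the other differences in the members' values was not tested, and in RNA from whole cultures fewer cells of a kind and less RNA per cell cannot be told apart.

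Some of the members' promoters hold motifs that the rule did not use. RefSeq promoter windows (GRCh38.p14), each from 250 bases before a gene's start to 50 after it, were matched for 66 of the 82 members and 14425 genes in all. Nuclear respiratory factor 1 (NRF1), the ETS-family factor GABP and YY1 are known regulators of respiratory chain genes. The NRF1 motif, the half-site GCGC on either side of the letters AN, searched on both strands like the others, was found for 16 of 66 members (24.2%) and 10.1% of all genes. The ETS motif CCGGAAGT was found for 18.2% of members and 7.2% of all genes, and the YY1 motif AAGATGGC for 16.7% and 4.83%. Shares for general promoter letters were not larger in members. GGGCGG was found for 62.1% of members and 65.7% of all genes, CCAAT for 37.9% and 42.4%, and TATAAA for 10.6% and 12.1%. A gene counted when any of its windows matched. The 66 members had 79 windows and all 14425 genes had 20403, and the shares were not corrected for this. The median GC content of the windows was 59.8% in members and 62.7% in all genes. These matches describe the letters of the windows and not binding, which was not measured.

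Members that carry the same motif differed in direction, which the following stretches show for the NRF1 motif, set in capitals, each ending before the gene's start. Printed stretches come only from members at an unadjusted p below 0.05 with a match before the start. NDUFA8, with a log2 fold change of 0.31, held the NRF1 motif across and after its start and is not printed. Some other members with the NRF1 motif lay near 0, such as UQCR10 (-0.0080) and NDUFA12 (0.092). ATP5F1C (chr10:7788135-7788176, plus strand), ATP5PO (chr21:33915805-33915848, minus strand) and NDUFA9 (chr12:4649014-4649063, plus strand) had negative log2 fold changes, of -1.05, -0.90 and -0.69.
ATP5F1C: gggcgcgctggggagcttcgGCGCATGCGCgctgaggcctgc
ATP5PO: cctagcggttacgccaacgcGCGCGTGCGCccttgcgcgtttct
NDUFA9: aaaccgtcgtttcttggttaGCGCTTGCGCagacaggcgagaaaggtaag

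SDHA, with a log2 fold change of 0.38, had 4 matches that recur every 49 bases over the 186 bases before its start (chr5:218134-218319, plus strand). The 49-base units around the first 3 matches were identical to each other at 24 to 30 positions. These counts include the motif's own letters, on which the units were aligned, and no baseline from unrelated stretches was computed. Of 14425 genes, 10 (0.0693%) had 4 or more matches in a window.
SDHA: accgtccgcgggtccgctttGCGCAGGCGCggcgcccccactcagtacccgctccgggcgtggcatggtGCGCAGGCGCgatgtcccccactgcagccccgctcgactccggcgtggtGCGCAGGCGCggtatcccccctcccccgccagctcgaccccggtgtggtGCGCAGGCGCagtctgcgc

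The ETS motif, in capitals, likewise stood before members of both directions. ATP5PF, with a log2 fold change of -0.30, also held this motif before its start and is not printed. ATP5MK (chr10:103396608-103396655, minus strand) and COX5B (chr2:97646005-97646052, plus strand) had log2 fold changes of 0.44 and 0.27, and ATP5PD (chr17:75047044-75047091, minus strand) had -0.88.
ATP5MK: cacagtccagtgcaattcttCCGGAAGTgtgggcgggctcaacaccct
COX5B: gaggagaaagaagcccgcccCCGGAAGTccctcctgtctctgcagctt
ATP5PD: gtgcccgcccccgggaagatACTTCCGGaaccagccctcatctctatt
The YY1 motif had a place of its own. In 9 of the 11 members that held it, it lay after the start, beginning 11 to 39 bases in and reading the same way as the gene, beside 380 of 697 genes that held it among all genes (54.5%). Those members were NDUFA3, NDUFA6, NDUFA7, NDUFA9, NDUFB8, NDUFS4, NDUFS7, UQCRC1 and ATP5PO.

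Complex I was the largest group, and more of its members had positive than negative values. Of its 35 genes 26 had a positive log2 fold change, where 60.2% of all genes did. At an unadjusted p below 0.05, 2 were lower (5.71%, beside 10.5% of all genes) and 6 higher (17.1%, beside 6.64%). NDUFB3, an accessory subunit of the membrane arm, had 11.58, 11.56 and 11.43 in the 3 endosulfan arrays, against 11.05, 10.54 and 10.05 in the 3 control arrays. The lowest endosulfan array was above the highest control array, and the control arrays spread over a wider range. Its log2 fold change was 0.98 ± 0.23 (SE), a 1.97-fold difference, with an adjusted p of 0.196, and its other probe sets gave 0.93 and 0.68.

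NDUFA9, an accessory subunit at the joint of both arms, had 8.46, 8.95 and 8.51 in endosulfan arrays, against 9.51, 8.96 and 9.54 in control arrays. The groups just failed to overlap, endosulfan 2 and control 2 being nearly level. Its log2 fold change was -0.69 ± 0.20 (SE), with an adjusted p of 0.21. NDUFS6, a zinc-binding accessory subunit of the peripheral arm, had 11.77, 11.68 and 11.70 in endosulfan arrays, against 11.29, 11.41 and 11.42 in control arrays. The groups were apart with little spread within either, for a log2 fold change of 0.34 ± 0.10 (SE) and an adjusted p of 0.215.

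The other complex I members past an unadjusted p of 0.05 were NDUFS4 (0.65), an accessory subunit of the NADH-oxidising part that is mutated in Leigh syndrome, NDUFA1 (0.47), NDUFA6 (0.46) and NDUFA8 (0.31), all with positive log2 fold changes, and NDUFA10 with -0.33. The 20 genes of the membrane arm, which holds the proton channels, had a median of 0.13. The 15 of the peripheral arm, which takes electrons from NADH, had a median of 0.24. NDUFV1, which binds NADH and the flavin, had 11.18, 11.26 and 11.17 in endosulfan arrays, against 10.34, 11.19 and 10.92 in control arrays. Control 1 was the lowest array, and control 2 lay among the endosulfan arrays. NDUFS1, the largest iron-sulphur subunit, had 6.45, 7.92 and 7.21 in endosulfan arrays, against 8.25, 7.47 and 7.16 in control arrays, with a log2 fold change of -0.43 ± 0.39 (SE). Endosulfan 1 was the lowest array and control 1 the highest, and the other 4 were interleaved. NDUFA11, the brightest complex I probe set, had 13.01, 13.00 and 12.95 in endosulfan arrays, against 12.57, 13.06 and 12.91 in control arrays. These overlapped, with a log2 fold change of 0.14 ± 0.14 (SE).

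In complex II, the succinate dehydrogenase that also serves the citric acid cycle, the catalytic subunit SDHA and the membrane anchor SDHC had opposite signs. SDHA, the flavoprotein that oxidises succinate, had 10.36, 10.26 and 10.18 in endosulfan arrays, against 9.82, 9.96 and 9.89 in control arrays. All endosulfan arrays were above all control arrays, with a log2 fold change of 0.38 ± 0.11 (SE) and an adjusted p of 0.204. Its other probe sets gave 0.40 and 0.28, and further probe sets that name SDHA together with another gene were not used. SDHC, an anchor that forms part of the ubiquinone site, had 10.01, 10.06 and 10.01 in endosulfan arrays, against 10.23, 10.24 and 10.36 in control arrays. These groups were apart in the opposite direction, with a log2 fold change of -0.25 ± 0.10 (SE) and an adjusted p of 0.276, and all 5 of its probe sets had a negative sign. SDHD, the second anchor, had 5.32, 5.81 and 5.25 in endosulfan arrays, against 5.65, 5.60 and 5.82 in control arrays. Its groups overlapped, and the log2 fold change was -0.23 ± 0.17 (SE), with -0.40 without endosulfan 2 and -0.12 without endosulfan 3. Of the 5 SDHD probe sets, 2 had a positive sign.

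**Figure D2:**
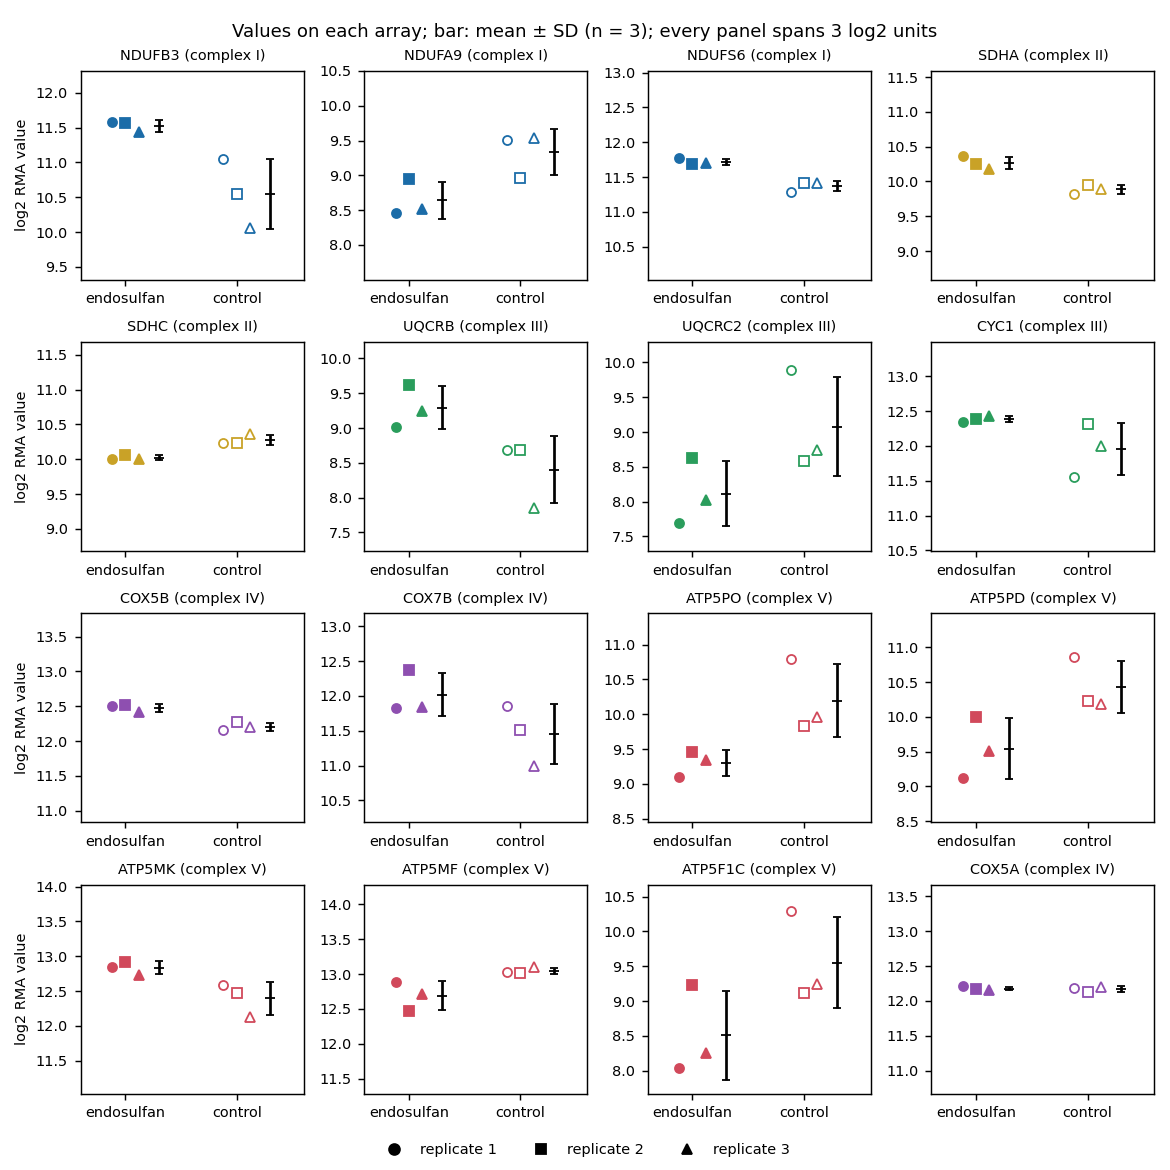
Log2 RMA value on each array for 16 genes, endosulfan left and control right, with marker shape for the replicate number and a bar for the mean ± SD (n = 3). Every panel spans 3 log2 units; the groups are apart for NDUFB3, SDHA and ATP5PO, overlap for UQCRC2 and ATP5F1C, and are level for COX5A.

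Complex III held members far apart in both directions. UQCRB, a small subunit near the ubiquinone site, had 9.02, 9.62 and 9.24 in endosulfan arrays, against 8.68, 8.68 and 7.85 in control arrays. The groups did not overlap, and control 3 was the lowest array. Its log2 fold change was 0.89 ± 0.25 (SE), a 1.85-fold difference, with an adjusted p of 0.206, and its other probe sets gave 1.26, 1.12 and 0.18. CYC1, the cytochrome c1 that hands electrons to cytochrome c, had 12.35, 12.39 and 12.43 in endosulfan arrays, against 11.56, 12.31 and 11.99 in control arrays. The groups were just apart, with control 2 close below the endosulfan arrays, and the log2 fold change was 0.43 ± 0.18 (SE), or 0.24 without control 1.

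UQCRC2, a core subunit, had 7.70, 8.63 and 8.02 in endosulfan arrays, against 9.89, 8.59 and 8.75 in control arrays. Control 1 stood above all other arrays, endosulfan 2 lay above control 2, and the groups overlapped. Its log2 fold change was -0.96 ± 0.37 (SE), with an adjusted p of 0.257, and -0.55 without control 1. The other core subunit, UQCRC1, had 11.72, 11.71 and 11.74 in endosulfan arrays, against 10.85, 11.75 and 11.54 in control arrays. Here control 1 stood below all other arrays. UQCRQ, the brightest of the complex, had 12.88, 12.86 and 12.71 in endosulfan arrays, against 12.86, 12.72 and 12.83 in control arrays, and UQCR10 had a log2 fold change of -0.0080 with a 95% confidence interval of -0.23 to 0.22. Signals of UQCRH and of UQCRHL, a near-identical copy of it, cannot be separated with certainty by probes, and their log2 fold changes were -0.15 and -0.045.

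Complex IV, cytochrome c oxidase, had the smallest values. The median size of its log2 fold changes, sign aside, was 0.090, beside 0.18 for complex I, 0.25 for complex II, 0.17 for complex III, 0.29 for complex V and 0.16 for all genes. Of its 17 genes 0 were lower (beside 10.5% of all genes) and 2 higher (11.8%, beside 6.64%) at an unadjusted p below 0.05. COX5B, a zinc-binding subunit, had 12.51, 12.51 and 12.42 in endosulfan arrays, against 12.16, 12.27 and 12.20 in control arrays. The groups were apart, with a log2 fold change of 0.27 ± 0.10 (SE) and an adjusted p of 0.254. COX7B had 11.83, 12.38 and 11.85 in endosulfan arrays, against 11.85, 11.51 and 11.00 in control arrays. Endosulfan 1 lay just below control 1, and the log2 fold change was 0.56 ± 0.24 (SE) with an adjusted p of 0.288, and 0.34 without control 3. COX6C had 11.66, 11.71 and 11.42 in endosulfan arrays, against 11.56, 11.06 and 10.75 in control arrays, also overlapping, with a log2 fold change of 0.47 ± 0.21 (SE), or 0.29 without control 3.

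Several complex IV subunits exist as ubiquitous and tissue-specific isoforms, and 0 of these isoforms passed the adjusted threshold. COX4I1, the ubiquitous form of subunit 4, had 12.76, 12.70 and 12.71 in endosulfan arrays, against 12.59, 12.76 and 12.73 in control arrays. COX4I2, the form known from lung and induced by low oxygen, had 6.71, 6.25 and 6.69 in endosulfan arrays, against 5.79, 6.51 and 6.06 in control arrays. COX4I1 was nearly level and COX4I2 overlapped between groups, with a log2 fold change of 0.43 ± 0.21 (SE), or 0.27 without control 1. COX6A1, the brightest of the complex, had 13.44, 13.44 and 13.35 in endosulfan arrays, against 13.57, 13.45 and 13.58 in control arrays, and its heart and muscle form COX6A2 had 6.25, 6.01 and 6.16 in endosulfan arrays, against 5.98, 6.01 and 6.16 in control arrays. COX6A1 was slightly lower without overlap (-0.12 ± 0.10 (SE)), with an adjusted p of 0.548.

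COX7A2 had 13.05, 13.07 and 13.12 in endosulfan arrays, against 13.11, 13.10 and 13.06 in control arrays, and the muscle form COX7A1 had 4.32, 4.16 and 4.34 in endosulfan arrays, against 4.19, 4.15 and 4.27 in control arrays. COX7A2L, a related protein that links complexes III and IV in supercomplexes, had 11.61, 11.75 and 11.55 in endosulfan arrays, against 11.47, 11.46 and 11.39 in control arrays. Only the last of these 3 had groups apart, with a log2 fold change of 0.20 ± 0.11 (SE). COX6B1 had 13.21, 13.32 and 13.22 in endosulfan arrays, against 13.07, 13.30 and 13.25 in control arrays, and COX6B2, its testis form, had 6.31, 5.78 and 6.17 in endosulfan arrays, against 5.87, 6.09 and 6.20 in control arrays. COX8A had 13.39, 13.42 and 13.32 in endosulfan arrays, against 13.26, 13.38 and 13.45 in control arrays, and its testis form COX8C had 4.05, 3.81 and 3.76 in endosulfan arrays, against 3.74, 3.91 and 3.77 in control arrays. Both pairs overlapped between the groups.

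COX7B2, the testis form of COX7B, had 2.78, 2.87 and 2.74 in endosulfan arrays, against 2.73, 2.51 and 2.70 in control arrays, below the array medians of 4.89 to 4.94, as were COX7A1 and COX8C, and its groups were just apart. COXFA4, a complex IV component once counted to complex I, had 12.51, 12.72 and 12.26 in endosulfan arrays, against 12.83, 12.20 and 12.36 in control arrays, and a log2 fold change of 0.033 ± 0.19 (SE). Its paralogue COXFA4L2 had 4.53, 4.43 and 4.53 in endosulfan arrays, against 4.40, 4.55 and 4.65 in control arrays. COX5A, a subunit on the matrix side, had the log2 fold change nearest 0 in the set, with 12.21, 12.17 and 12.16 in endosulfan arrays, against 12.19, 12.13 and 12.19 in control arrays. The 95% confidence interval of its log2 fold change was -0.22 to 0.23.

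ATP synthase was the complex with the most members lower at an unadjusted p below 0.05, 5 of 18 (27.8%, beside 10.5% of all genes), with 1 higher (5.56%, beside 6.64%). Its parts had different medians: the 4 genes of the peripheral stalk, which holds the catalytic head still while the rotor turns, had a median log2 fold change of -0.82, the 5 of the head and central stalk -0.27, the 3 c-ring genes 0.081 and the 5 membrane subunits 0.10. This division into parts was chosen with earlier values known, and no test was made between parts. ATP5PO, the OSCP subunit that joins stalk and head, had 9.10, 9.45 and 9.34 in endosulfan arrays, against 10.80, 9.83 and 9.96 in control arrays. No endosulfan array reached the control arrays, of which control 1 was highest. Its log2 fold change was -0.90 ± 0.25 (SE), a 1.86-fold difference, with an adjusted p of 0.203, and -0.59 without control 1.

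ATP5PD, stalk subunit d, had 9.12, 9.99 and 9.51 in endosulfan arrays, against 10.85, 10.23 and 10.19 in control arrays. The groups were apart, with a log2 fold change of -0.88 ± 0.26 (SE) and an adjusted p of 0.21. ATP5PF, coupling factor 6, had 10.50, 10.75 and 10.48 in endosulfan arrays, against 10.95, 10.80 and 10.87 in control arrays, again apart, with -0.30 ± 0.12 (SE). ATP5PB, stalk subunit b, had 9.14, 10.49 and 9.54 in endosulfan arrays, against 11.01, 10.02 and 10.44 in control arrays. Its groups overlapped because endosulfan 2 lay above controls 2 and 3, and the log2 fold change was -0.76 ± 0.37 (SE). The median of these 4 genes was -1.04 to -0.55 when each array was left out in turn, the value nearest 0 being that without control 1.

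ATP5F1C, the γ subunit that turns inside the head, had 8.04, 9.23 and 8.25 in endosulfan arrays, against 10.30, 9.12 and 9.25 in control arrays. Endosulfan 2 lay among the controls, so the groups overlapped, and the log2 fold change was -1.05 ± 0.39 (SE), with an adjusted p of 0.252. ATP5F1E, the ε subunit beside it, had 9.72, 10.74 and 9.93 in endosulfan arrays, against 11.50, 10.28 and 10.52 in control arrays, with the same overlap. The α and catalytic β subunits, ATP5F1A and ATP5F1B, had log2 fold changes of -0.27 and 0.15, and the δ subunit ATP5F1D had 0.41. In ATP5F1D control 1 was the lowest array, at 11.02.

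**Figure D3:**
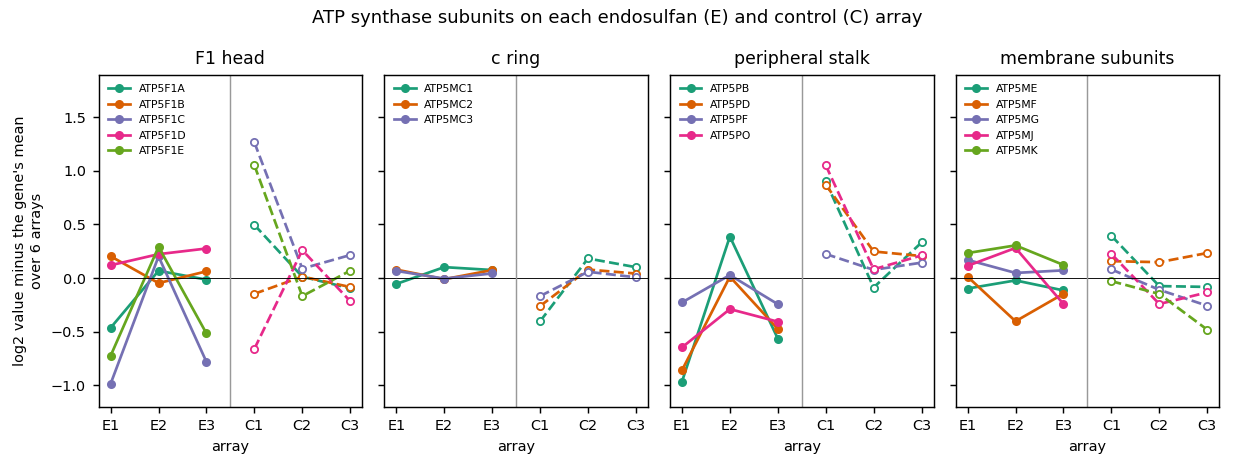
Log2 value minus the gene's mean over the 6 arrays (vertical axis) on each endosulfan (E1 to E3, filled) and control (C1 to C3, open) array, for 17 ATP synthase genes in 4 parts of the enzyme; ATP5MGL is not drawn, and lines join the arrays of a gene, which have no order. The peripheral stalk genes lie lower in E1 and E3 than in the control arrays, and E2 lies between these or among the control arrays.

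Among the membrane subunits, ATP5MK, a small subunit also known as DAPIT, had 12.85, 12.92 and 12.74 in endosulfan arrays, against 12.59, 12.47 and 12.13 in control arrays. The groups were apart, with a log2 fold change of 0.44 ± 0.14 (SE) and an adjusted p of 0.22. ATP5MF, subunit f and the brightest of the complex, had 12.88, 12.46 and 12.72 in endosulfan arrays, against 13.03, 13.02 and 13.10 in control arrays. It was apart in the other direction, with -0.36 ± 0.13 (SE) and an adjusted p of 0.249, and 4 of its 5 probe sets gave -0.43 to -0.36. The c-ring genes encode the same mature protein. ATP5MC1 had 10.53, 10.69 and 10.66 in endosulfan arrays, against 10.18, 10.77 and 10.69 in control arrays. ATP5MC2 had 12.83, 12.75 and 12.83 in endosulfan arrays, against 12.49, 12.84 and 12.80 in control arrays. ATP5MC3 had 12.84, 12.77 and 12.82 in endosulfan arrays, against 12.60, 12.83 and 12.78 in control arrays. In all 3, control 1 was the lowest array and the other 5 lay close together. ATP5MG and its copy ATP5MGL, which probes may not separate, had log2 fold changes of 0.19 and 0.20.

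Several of the widest differences among members lay in the middle of the brightness range, where all probe sets also spread most. At log2 levels from 9 to 10, the 5th and 95th percentiles of all probe sets' log2 fold changes were -0.77 and 0.50, and at levels above 13 they were -0.26 and 0.18. ATP5PO, ATP5PD and ATP5F1C lay in the first of these ranges, and COX6A1, COX6B1, COX7A2 and COX8A in the second. NDUFB3, with 0.98, was an exception at a mean level of 11.04. From a level of 11 the percentiles of all probe sets were -0.53 and 0.47.

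**Figure D4:**
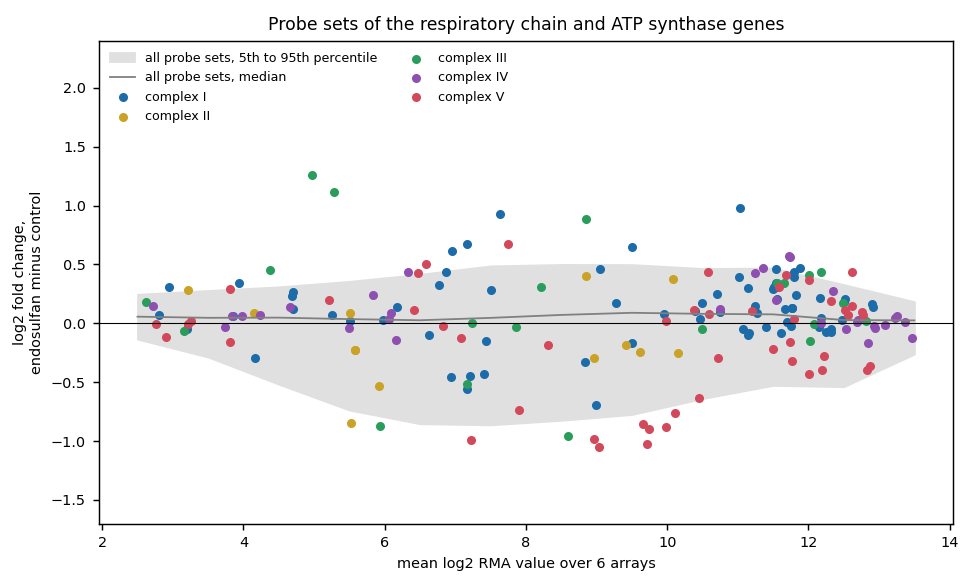
Log2 fold change, endosulfan minus control (vertical), against the mean log2 RMA value over the 6 arrays (horizontal) of 187 member probe sets, coloured by complex, over the 5th to 95th percentile (grey) and median (line) of all probe sets. The points below the grey band between levels of 9 and 10 are probe sets of ATP5PO, ATP5PD and ATP5F1C, and the complex III points above it near a level of 5 are probe sets of UQCRB.

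Control 1 and endosulfan 2 departed from the other arrays of their group in many of the same members. Over the 82 members, endosulfan 2 minus the mean of endosulfan 1 and 3 had a correlation of r = 0.64 across genes with control 1 minus the mean of control 2 and 3, beside 0.61 over all genes, which are not independent replicates. The sign was the same in 54 members, or 65.9%, beside 73.1% of all genes. ATP5F1C departed by 1.09 in endosulfan 2 and 1.12 in control 1, and UQCRC2 by 0.77 and 1.22. For ATP5F1C both departures, between arrays of the same exposure, were larger than the difference of -1.05 between the groups.

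**Figure D5:**
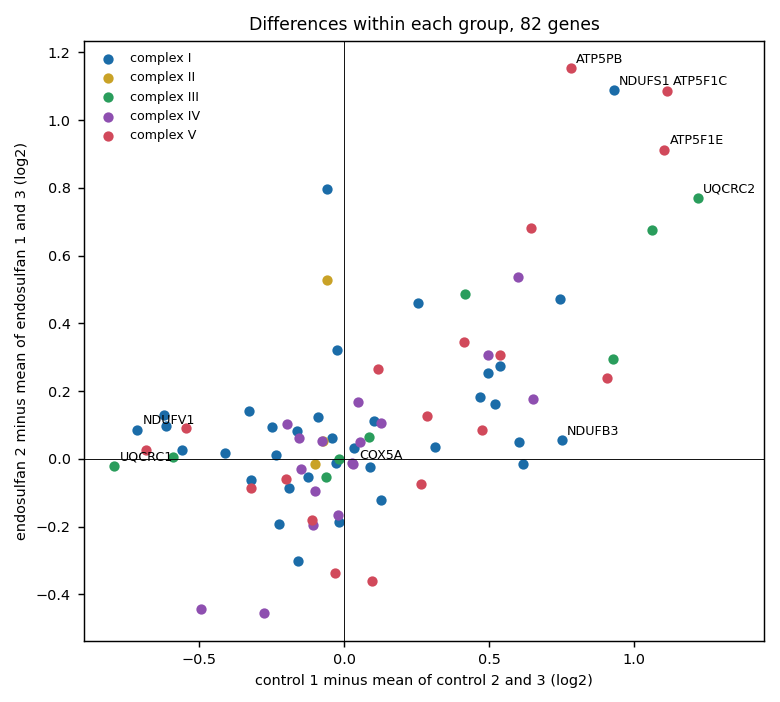
Endosulfan 2 minus the mean of endosulfan 1 and 3 (vertical, log2) against control 1 minus the mean of control 2 and 3 (horizontal, log2) for the 82 genes, coloured by complex. ATP5F1C, ATP5F1E, ATP5PB, UQCRC2 and NDUFS1 lie at the upper right, and COX5A lies near 0 on both axes.

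Leaving out an array moved the counts at an unadjusted p below 0.05, though 0 members passed the adjusted threshold in each of these 6 fits. The 9 lower members became 4 without endosulfan 1, 3 without endosulfan 3, 5 without control 1 and 5 without control 3. The 1899 lower genes among all became 1192, 1067, 1176 and 1405 in these fits, in that order. The 12 higher members became 7 without endosulfan 2 and 4 without control 3, where the 1204 higher genes among all became 1489 and 624. Without both control 1 and endosulfan 2, a choice made after the values were seen, 2 members passed, ATP5F1C (-1.04, adjusted p = 0.0475) and NDUFB3 (1.21, adjusted p = 0.0489), among 157 genes in all. With array weights, which rested mainly on endosulfan 3 and control 3, 14 members were lower and 22 higher at the adjusted threshold, among 5915 genes.

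Genes that build or feed these complexes were read from 4 lists, and in each list 0 genes passed the adjusted threshold. The counts below are at an unadjusted p below 0.05, where 10.5% of all genes were lower and 6.64% higher, and the median log2 fold change of all genes was 0.053. Of 53 assembly factors measured, 6 were lower (11.3%) and 12 higher (22.6%), with a median log2 fold change of 0.11. LYRM7, which helps insert the Rieske protein into complex III, had 4.77, 5.05 and 5.39 in endosulfan arrays, against 6.02, 5.74 and 5.92 in control arrays, a log2 fold change of -0.82 ± 0.17 (SE). The groups were apart, and so were those of TMEM70, an assembly factor of ATP synthase, with 0.51 ± 0.14 (SE). Of 26 mobile carriers, ubiquinone synthesis enzymes and regulators, 1 was lower (3.85%) and 6 higher (23.1%), with a median of 0.096. COQ7, a hydroxylase of ubiquinone synthesis, had 7.14, 7.03 and 6.99 in endosulfan arrays, against 6.50, 6.67 and 6.43 in control arrays, and a log2 fold change of 0.52 ± 0.11 (SE), and PDSS2, which helps make the tail of ubiquinone, had 0.44 ± 0.11 (SE).

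Of 22 genes of mitochondrial biogenesis and mitochondrial DNA expression, 4 were lower (18.2%) and 3 higher (13.6%), with a median of -0.0060. LRPPRC, which stabilises mitochondrial messenger RNAs, had 6.69, 7.91 and 7.31 in endosulfan arrays, against 8.68, 7.86 and 8.48 in control arrays. Its groups overlapped through endosulfan 2, with a log2 fold change of -1.03 ± 0.32 (SE). MTERF1, a mitochondrial transcription terminator, had -0.42 ± 0.14 (SE), with groups apart. Of 19 citric acid cycle and pyruvate dehydrogenase genes, 2 were lower (10.5%) and 1 higher (5.26%), with a median of -0.041. MPC2, a subunit of the mitochondrial pyruvate carrier, had 9.51, 9.62 and 9.33 in endosulfan arrays, against 8.92, 8.85 and 8.62 in control arrays, and a log2 fold change of 0.70 ± 0.13 (SE). CS, the citrate synthase, had 10.76, 10.85 and 10.68 in endosulfan arrays, against 11.11, 11.03 and 11.28 in control arrays, and a log2 fold change of -0.38 ± 0.12 (SE). Both had groups apart, in opposite directions, with adjusted p of 0.196 for MPC2 and 0.218 for CS.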

How the data were processed

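RNA from SH-SY5Y cells was measured on 6 one-colour PrimeView arrays. The authors deposited 1 table of log2 values, made with Affymetrix Expression Console and RMA per the submitters' processing notes (versions not given in the sources used here). Quantiles are normalized in RMA, which removes a shift shared by most transcripts. Of 49395 rows, 102 array controls were set aside. Each gene was represented by its one-gene probe set of highest mean over the 6 arrays. All genes, and all probe sets, were fitted with limma 3.58.1 (lmFit, eBayes) in R 4.3.3, endosulfan against control, two-sided, adjusted by Benjamini-Hochberg at 0.05, with no covariate; figures used matplotlib 3.10.9. The fit was tested on simulated data. The members, lists, parts of complexes and tests were chosen with earlier results of these data known. Array values are printed for the 3 smallest p and the brightest gene of each complex, isoform sets and, chosen after their values were seen, some others. The number of arrays limits the precision. Alternatives are given in the closing section.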

Additional observations from a re-analysis of the deposited data

How the results depend on the processing

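There were 3 arrays a group, and in genes such as ATP5F1C arrays within a group differed by as much as the groups did. Dim probe sets have no call against background, and near-identical copies may share probes. Of 525 alternative values for 33 named genes, 466 kept their sign and side of the adjusted threshold, 18 passed it only under an alternative (17 with array weights, 1 without control 1 and endosulfan 2) and 41 changed sign. The replicate block, the fit without moderation and the mean-variance trend (33 values each) cannot change a log2 fold change in this design. Nor can keeping only probe sets above the median level (30 values), so the signs in these fits were fixed in advance. The count of members past the adjusted threshold stayed 0 except with array weights (36 genes, 51 probe sets) and, chosen after the data were seen, without control 1 and endosulfan 2 (2 genes). The cause of each move below was not tested.

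Lower members at an unadjusted p below 0.05 (9) numbered 3 with the replicate block, 16 with array weights, 5 without moderation and 0 with the poly-A spike-in level as covariate (added after the data were seen). Higher members (12) numbered 26 with array weights and 1 with that covariate. Among all 18132 genes, array weights gave 3853 lower and 4238 higher, and the fit without moderation 929 lower, beside 1899 lower and 1204 higher. With the block 1201 of all genes were lower and 576 higher at that p, beside 1899 and 1204, and 0 passed the adjusted threshold, beside 1. The block changed no call of a member at the adjusted threshold. Both groups hold the same replicate numbers, so the block cannot change a log2 fold change, and the medians of the complexes stayed the same by design. Same-numbered arrays did not deviate together (r = -0.51, -0.40 and 0.051). These deviations are taken from means of 3 arrays and depend on each other, so they cannot decide whether same-numbered arrays share a culture or day. Without control 1 and endosulfan 2 there were 10 lower and 14 higher members, with the counts over all genes in that fit not given here. Leaving out each array gave 3 to 9 lower and 4 to 13 higher members, where all genes gave 1067 to 2469 lower and 551 to 1833 higher. The medians were then 0.060 to 0.10 for all members, 0.096 to 0.17 for complex I and -0.27 to -0.12 for complex II. They were -0.0079 to 0.15 for complex III, 0.028 to 0.11 for complex IV and -0.11 to -0.029 for complex V. The complex III median was 0.093 after quantile normalization, 0.18 with array weights and 0.10 with the covariate. With the covariate the medians were also 0.054 for all members, 0.077 for complex I and 0.0094 for complex II, and without control 1 and endosulfan 2 complex I had 0.089.

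Sign changes were confined to 13 of the 33 named genes. COX7A2 gave 0.032 after quantile normalization and 0.0047 after centring. With probe sets averaged per gene, UQCRQ gave -0.015 and COX4I1 -0.034. With array weights UQCRQ gave -0.076, COX4I1 -0.014, COX6B1 -0.022, COX6B2 -0.014, COX7A2 0.041, COX8A -0.093, COX8C -0.0069 and ATP5MC1 -0.019. With the covariate NDUFA11 gave -0.019, SDHD 0.0094, COX4I1 -0.019, COX4I2 -0.016, COX6B1 -0.0098, COX6B2 -0.040, ATP5MC1 -0.11, ATP5MC2 -0.021 and ATP5MC3 -0.013. Without control 1 and endosulfan 2, NDUFA11 gave -0.0035, COX4I1 -0.013, COX6B1 -0.058, COX7A2 0.0012, COX8A -0.057 and ATP5MC1 -0.13. Leaving out each array gave 0.0023 to 0.24 for NDUFA11, -0.023 to 0.072 for UQCRQ, -0.022 to 0.061 for COX4I1, -0.023 to 0.088 for COX6B1, -0.078 to 0.19 for COX6B2, -0.030 to 0.0050 for COX7A2, -0.037 to 0.059 for COX8A, -0.027 to 0.12 for COX8C, -0.10 to 0.19 for ATP5MC1 and -0.013 to 0.16 for ATP5MC2.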

Other observations

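Probe sets of the same gene were read side by side for 50 members, and in 40 of them all probe sets had the same sign. SDHD, the membrane anchor of complex II, was among the 10 that did not: its 5 probe sets gave log2 fold changes, endosulfan minus control, between -0.84 and 0.09, and 2 of them held identical values on every array. NDUFB9, an accessory subunit of the complex I membrane arm, gave values between -0.05 and 0.04 over 4 probe sets. In NDUFA3, 1 probe set gave 0.62 with groups apart (limma, unadjusted p = 0.010, adjusted p = 0.228). Its other probe sets, which were brighter, gave -0.08 to -0.05. These genes were chosen after their values were seen.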
